A study of Mus musculus with 24 samples.

Results

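Expression of Nfe2l2, which encodes the transcription factor NRF2, and of 9 of its established target genes was followed in mouse macrophages labelled wild type or Olfml3 knockout. The 10 members were chosen by symbol and were found in both expression tables, among 56691 genes listed in each. They are Nfe2l2, Hmox1, Nqo1, Gclc, Gclm, Txnrd1, Srxn1, Slc7a11, Gsr and G6pdx, and each symbol had 1 row per table.

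RNA-seq was performed in RAW264.7 cells, a mouse macrophage-like leukemia line, and in bone marrow-derived macrophages (BMDMs), with 3 libraries in each of 8 groups and 24 in all. The 4 groups of each cell type were wild type with PBS, wild type with LPS, Olfml3 knockout with PBS and Olfml3 knockout with LPS, where LPS is the endotoxin of Gram-negative bacteria, given at 100 ng/mL for 4 h. Genotypes were read from the sample titles, and the genotype tag contradicted the title in 12 of 24 samples. The RAW264.7 knockout was made with CRISPR guides delivered by lentivirus and single-cell clones were sorted, and the number of clones behind these libraries is not stated in the sources used here. BMDMs were grown in conditioned medium from the marrow of young adult male C57BL/6 mice, wild type or with a whole-body Olfml3 knockout. The labels do not say whether the 3 libraries of a group came from separate cultures or animals, so the p-values measure the spread between these libraries, which may be technical.

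NRF2 is held low in resting cells by KEAP1, an adaptor that hands it to the CUL3 ubiquitin ligase for degradation. Electrophiles and oxidants modify KEAP1, after which NRF2 accumulates, pairs with small MAF proteins and binds antioxidant response elements. BACH1 competes for the same elements as a repressor and is itself removed by heme. NRF2 is therefore controlled largely as a protein, and the level of its mRNA does not report its activity. In macrophages the pathway is known for limiting oxidative damage and inflammatory gene expression. It can be activated by itaconate, the product of the LPS-induced enzyme ACOD1, also named IRG1.

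The promoters of Nfe2l2 and Slc7a11 are shown because Nfe2l2 is the regulator and Slc7a11 was the member with the largest LPS response of the 10. RefSeq promoter windows of the GRCm38.p6 build, running from 250 bases before to 50 bases after a start, were held for 7 of the 10 members, with 9 windows in all because Txnrd1 has several starts. The Nfe2l2 window is chr2:75704614-75704913 and the Slc7a11 window is chr3:50443564-50443863, both on the minus strand and both printed 5′ to 3′ in the sense of the gene. Capitals mark matches to the antioxidant response element core TGACNNNGC or to TGATGNAA, a core of the amino acid response elements bound by ATF4, searched on both strands.
Nfe2l2: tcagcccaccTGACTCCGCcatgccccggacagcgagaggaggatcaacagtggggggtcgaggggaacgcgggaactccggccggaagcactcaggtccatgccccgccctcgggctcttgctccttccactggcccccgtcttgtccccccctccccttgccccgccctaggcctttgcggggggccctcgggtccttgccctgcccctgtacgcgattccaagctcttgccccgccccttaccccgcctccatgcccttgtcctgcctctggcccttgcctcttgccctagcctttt
Slc7a11: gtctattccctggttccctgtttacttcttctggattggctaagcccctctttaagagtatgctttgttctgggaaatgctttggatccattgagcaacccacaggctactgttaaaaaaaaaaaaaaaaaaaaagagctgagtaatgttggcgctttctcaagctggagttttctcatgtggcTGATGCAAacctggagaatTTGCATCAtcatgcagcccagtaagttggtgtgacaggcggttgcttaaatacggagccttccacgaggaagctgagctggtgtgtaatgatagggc

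The Nfe2l2 window held 1 antioxidant response element core, TGACTCCGC, whose first base lies 240 bases before the start. The Slc7a11 window held no antioxidant response element core in these letters. It held the amino acid response core on both strands, as TGATGCAA beginning 66 bases before the start and as TTGCATCA beginning 47 bases before it, and these matches did not overlap. Antioxidant response element cores were matched in windows of 5 of the 7 members, and the other four were Srxn1 (GCTAGGTCA), Gclm (GCACCGTCA), Txnrd1 (GCTTTGTCA, in 1 of its windows) and G6pdx (GCTCAGTCA), all on the reverse strand. Of 32851 mouse promoter windows of this length, 12.4% held the antioxidant core and 3.97% held the amino acid response core. A match describes letters in a window, and binding was not measured.

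Each RAW264.7 library held between 11638273 and 16478616 counts, and each BMDM library between 17121240 and 22873094. Values are FPKM, read counts scaled by exon length and by library total, and changes are log2 differences of FPKM + 0.1 from limma with their standard error (SE). A gene passed, and is written as higher, lower, risen or fallen, when its Benjamini-Hochberg adjusted p over all genes tested was under 0.05 and its fold change was at least 1.5. Shares of all genes are over every gene above 0 FPKM in at least 1 library, 26740 in RAW264.7 and 26973 in BMDMs. Of these, 11336 and 10555 had a mean of at least 1 FPKM, and shares over those alone were not computed. Olfml3 fell in BMDM knockout libraries, from between 0.53 and 0.65 to at most 0.03 FPKM with PBS. In RAW264.7 its mRNA lay above wild type in the libraries labelled knockout. The study describes its RAW264.7 clones as Sanger sequenced and knocked out at both alleles, and the edit itself was not examined here. Olfml3 there stood at 0.65 to 1.19 FPKM in the libraries labelled knockout with PBS against 0.15 to 0.19 in wild type, and at 18.3 to 18.9 against 0.13 to 0.29 with LPS. The 7 LPS response genes checked (Acod1, Tnf, Il1b, Il6, Nos2, Ptgs2 and Cxcl2) rose in wild type cells of both types, by 5.39 to 11.14 on the log2 scale in RAW264.7 and by 5.06 to 10.61 in BMDMs. Library 1 of the RAW264.7 group labelled knockout with PBS stood apart. Its correlation with the other libraries of its group was 0.934 to 0.939, against 0.956 to 0.958 with wild type PBS libraries. The knockout effects with PBS in RAW264.7 that passed are given with and without it. All 7 macrophage markers were present in BMDMs, and 6 of 7 in RAW264.7, where Mertk was at 0 in all 12 libraries. T, B and NK cell, neutrophil, dendritic, fibroblast and erythroid markers summed to at most 1.08 FPKM per list in RAW264.7. In BMDMs those sums stayed at or under 1.22 FPKM except for T cell markers, where Cd4 alone gave up to 8.58, and neutrophil markers, where S100a8 and S100a9 carried sums of up to 7.99.

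Nfe2l2 mRNA was well expressed in all 24 libraries. It read 46.8, 47.6 and 46.5 FPKM in RAW264.7 wild type with PBS and 30.4, 31.9 and 32.1 with LPS. In BMDM wild type it read 76.7, 79.9 and 78.7 FPKM with PBS and 29.9, 30.1 and 29.8 with LPS. In both cell types the PBS and LPS libraries did not overlap. By mean level the order was BMDM knockout PBS (83.4), BMDM wild type PBS (78.4), BMDM knockout LPS (52.3), RAW264.7 wild type PBS (47.0), RAW264.7 knockout-labelled PBS (45.8), RAW264.7 wild type LPS (31.5), BMDM wild type LPS (29.9) and RAW264.7 knockout-labelled LPS (24.1 FPKM). The tables of the cell types were made separately and levels across them were not tested. The median expressed gene in wild type also shifted with LPS, by -0.73 in BMDMs and -0.21 in RAW264.7 on the log2 scale. The order of PBS against LPS groups carries that shift. Of neighbours within a table, the RAW264.7 PBS groups overlapped and the BMDM PBS groups did not overlap but did not pass the test.

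Loss of Olfml3 was associated with more Nfe2l2 mRNA in LPS-treated BMDMs. The knockout libraries read 49.95, 53.71 and 53.21 FPKM with LPS, all above the highest wild type library at 30.1. The gene was 1.74-fold higher (log2 0.80, SE 0.05, limma adjusted p = 1.25e-05). With PBS the BMDM knockout libraries read 80.6, 85.8 and 83.7 FPKM, and the difference of 0.09 (SE 0.05, limma adjusted p = 0.450) did not pass. The knockout effect was thus 0.71 larger with LPS than with PBS (SE 0.07, limma adjusted p = 3.18e-04). In RAW264.7 the libraries labelled knockout read 44.8, 45.2 and 47.3 FPKM with PBS, a difference of -0.04 (SE 0.07, limma adjusted p = 0.772). With LPS they read 23.2, 25.0 and 24.2 FPKM, all below the 3 wild type libraries. That difference of -0.38 (SE 0.07, limma adjusted p = 0.00370) was under the fold of 1.5, so Nfe2l2 did not pass there.

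**Figure D1:**
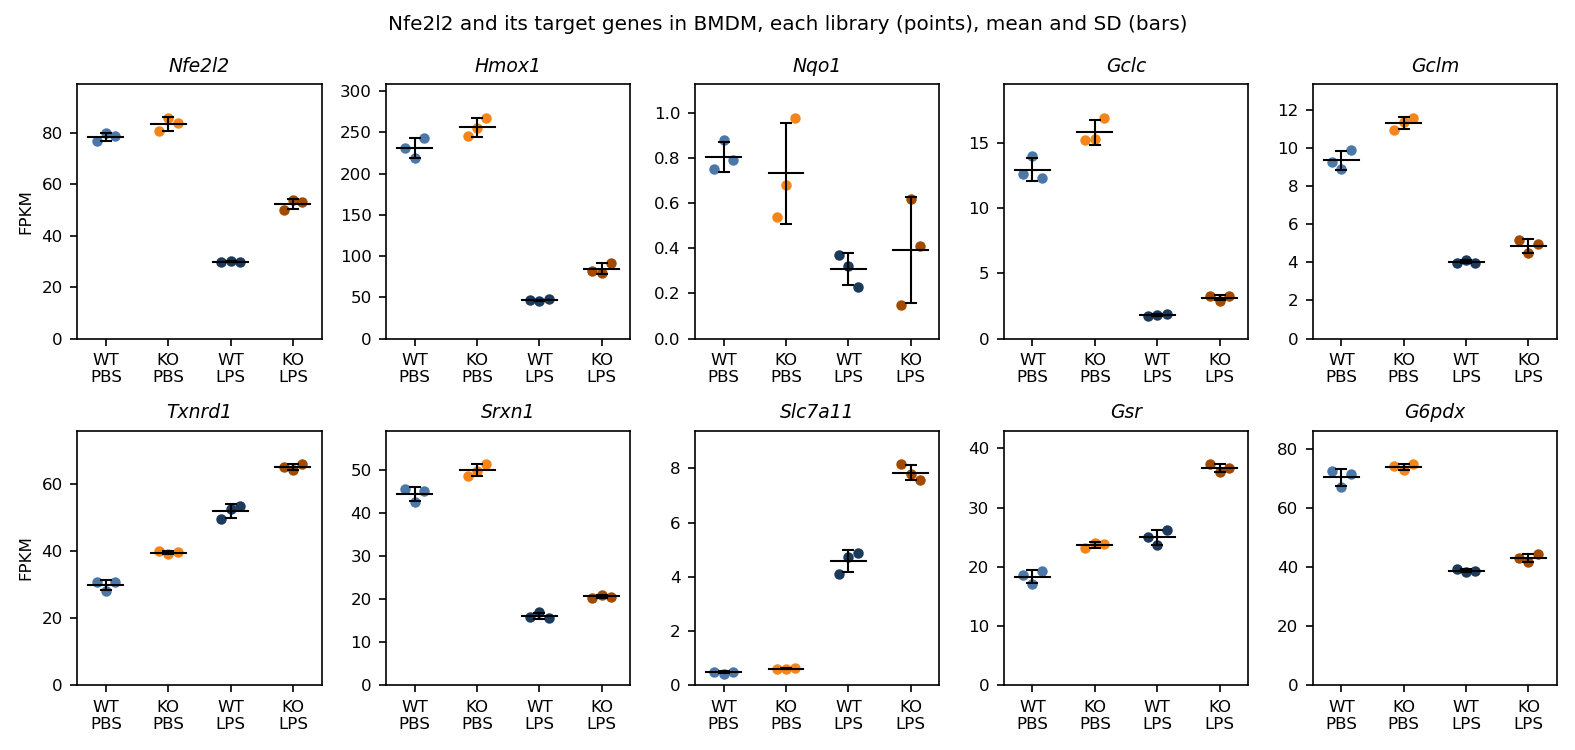
FPKM (vertical axes, from 0) of Nfe2l2 and its 9 targets in BMDMs by group (WT wild type, KO knockout), with 3 libraries per group as points and the mean with its SD as lines. The 3 knockout libraries with LPS lie above the 3 wild type libraries with LPS for every member except Nqo1.

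In BMDMs with LPS, 4 of the 10 members were higher in the knockout (Nfe2l2, Hmox1, Gclc and Slc7a11) and none was lower, while 4.76% of the 26973 genes tested passed in either direction. The members' median difference was 0.46, against 0.04 over all genes tested, a set that includes many genes near 0 FPKM. For 9 of the 10 the 3 knockout libraries stood above the 3 wild type libraries, with Nqo1 the exception, and 26.7% of all genes tested had groups that did not overlap. Median-ratio scaling removed a general shift of 0.14 in this comparison, and the same 4 members passed with edgeR on counts, at 0.66 for Nfe2l2, 0.72 for Hmox1, 0.66 for Gclc and 0.64 for Slc7a11. Without LPS no member passed in BMDMs, where 1.81% of genes did. By limma 4 members had an adjusted p under 0.05 there, a rule for which the share of all genes was not computed, and edgeR called 0 as well. Even so, 9 of 10 members had all knockout libraries above all wild type libraries, again without Nqo1, beside 20.5% of all genes with groups apart in either direction. Txnrd1 had the largest such difference, at 0.41 (SE 0.05, limma adjusted p = 0.00194), under the fold of 1.5. The knockout effect itself differed with treatment for 2 members, Nfe2l2 and Hmox1, where 2.91% of genes passed that test.

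In RAW264.7 the pattern was mixed. With PBS, 4 members were lower in the libraries labelled knockout (Hmox1, Nqo1, Srxn1 and Slc7a11) and none was higher, against 8.55% of 26740 genes tested. The same number, 4, passed without library 1, a fit for which the share of all genes was not computed. TPM scaling left 2 (Nqo1 and Slc7a11), with 2237 genes called in all, and edgeR called 3 of the 9 it tested, with 3116 in all. With LPS, 3 members passed, Gclc and Slc7a11 higher and Srxn1 lower, against 17.3% of genes. The median member difference was -0.22 with PBS and -0.22 with LPS, and 0.02 and 0.00 over all genes. With PBS the groups did not overlap for 7 members, all 7 below wild type, and with LPS for 9, of which 3 lay above it, whether or not they passed. Of all genes, 24.1% and 40.2% had groups apart. The knockout effect differed with treatment for 1 member, Slc7a11, where 1.95% of genes passed. Macrophage markers moved with the same labels in RAW264.7. Their sum was 2910 to 2940 FPKM in wild type and 1050 to 1290 in the libraries labelled knockout with PBS, and 2730 to 2870 and 829 to 862 with LPS, mostly through Lyz2. Of the 6 tested, 3 were lower with PBS (Lyz2, Itgam and Adgre1) and 3 with LPS (Lyz2, Itgam and Fcgr1), while Csf1r with PBS stood at 0.37 (limma adjusted p = 0.0150), under the fold. Of 3 dendritic cell markers, Zbtb46 and Xcr1 were higher with LPS, with a sum of 0.59 to 1.08 against 0.20 to 0.50 FPKM. In BMDMs the macrophage sum was 14700 to 15100 in wild type and 16500 to 17700 in the knockout with PBS, and 11800 to 12100 and 12400 to 12700 with LPS, while the median over the 7 markers was -0.17 and -0.07 on the log2 scale and the 1 marker that passed each time, Fcgr1, was lower. Their part in the results was not tested. In bulk RNA, fewer cells of a kind and less RNA per cell cannot be told apart.

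**Figure D2:**
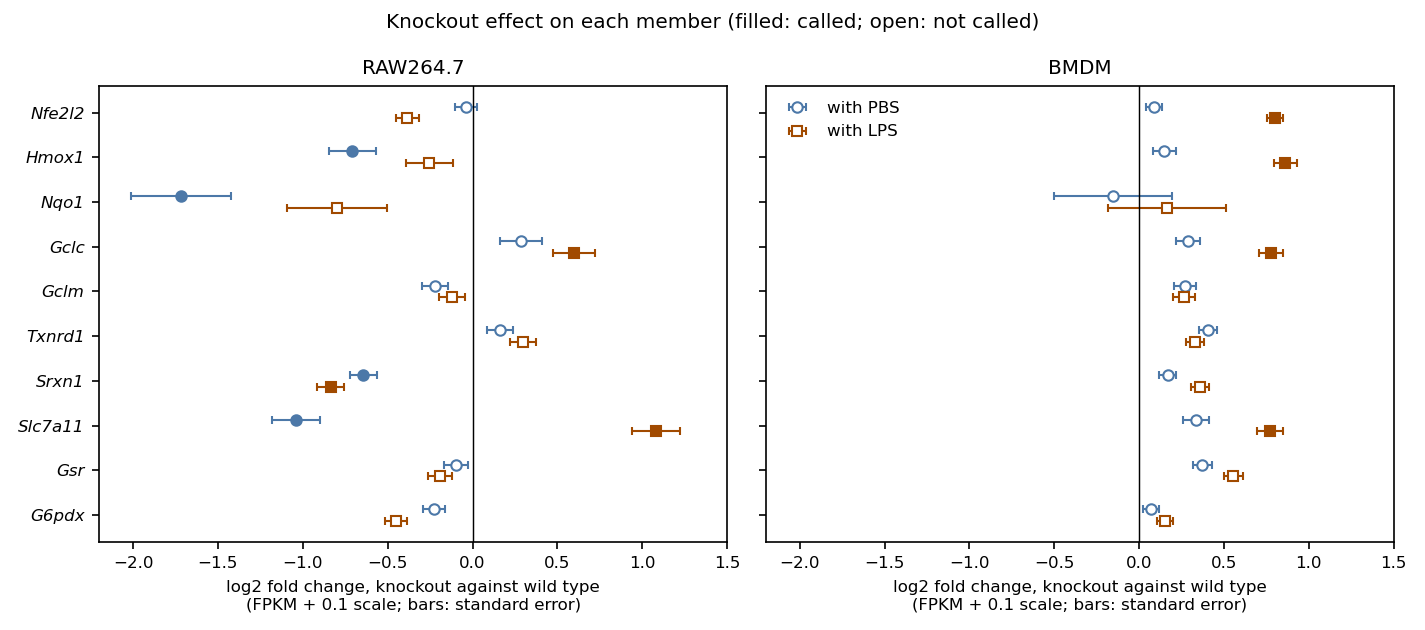
Log2 fold change of knockout against wild type (horizontal axes, FPKM + 0.1 scale) for each member in RAW264.7 and BMDMs, with PBS (circles) and LPS (squares), bars showing the standard error and filled symbols marking members that passed the test. Slc7a11 lies at -1.04 and 1.08 in RAW264.7, and the 4 filled squares in BMDMs lie between 0.77 and 0.86.

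Hmox1 encodes heme oxygenase-1, which breaks heme down to biliverdin, iron and carbon monoxide, and it was the member with the highest FPKM in BMDMs with PBS. BMDM wild type libraries read 231, 219 and 243 FPKM with PBS and 46.3, 45.7 and 47.3 with LPS. In knockout BMDMs it read 245, 255 and 268 FPKM with PBS and 82.2, 79.2 and 92.2 with LPS. LPS libraries stayed far below PBS libraries in both genotypes, and knockout libraries stood above wild type under each treatment. The knockout difference was 0.86 with LPS (1.82-fold, SE 0.07, limma adjusted p = 4.90e-05) and 0.15 with PBS (SE 0.07, adjusted p = 0.356). The gap between these effects was 0.71 (SE 0.10, limma adjusted p = 0.00255). RAW264.7 went the other way. Wild type libraries read 45.1, 43.9 and 40.7 FPKM with PBS, and those labelled knockout read 32.6, 25.6 and 22.0. Hmox1 fell by 0.71 there (SE 0.14, limma adjusted p = 0.0109), and by 0.86 without library 1. Leaving out library 3 of that group instead left -0.58 and ended the call. With LPS the RAW264.7 readings were 27.8, 25.7 and 30.2 FPKM in wild type and 22.0, 23.1 and 25.0 in the libraries labelled knockout, a difference of -0.25 that did not pass (SE 0.14, limma adjusted p = 0.228).

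Nqo1, the quinone reductase often used as a readout of NRF2, was barely expressed in either cell type. BMDM wild type libraries read 0.75, 0.88 and 0.79 FPKM with PBS and 0.37, 0.32 and 0.23 with LPS. Knockout BMDM libraries overlapped them, at 0.54, 0.68 and 0.98 with PBS and 0.15, 0.62 and 0.41 with LPS. RAW264.7 wild type libraries read 0.29, 0.32 and 0.29 FPKM with PBS and 0.10, 0.13 and 0.13 with LPS. Those labelled knockout read 0.08, 0 and 0 FPKM with PBS and 0, 0.10 and 0 with LPS, below wild type without overlap only with PBS. The 3 wild type PBS libraries held 20 counts together and the 3 labelled knockout held 2. The ratio of counts per library total was 0.0911, with an exact binomial interval at 95% of 0.0103 to 0.375 that covers counting error only. Both knockout counts lay in library 1. The log2 difference of -1.72 (SE 0.29, limma adjusted p = 0.00576) passed, as did -2.00 without library 1, but it depended on the pseudocount and became -0.34 with 1 FPKM added, where it did not pass. With LPS the counts were 2 against 8, a ratio of 0.283 with an interval of 0.0293 to 1.42, which includes no difference. The log2 difference of -0.80 (SE 0.29, limma adjusted p = 0.0770) did not pass, and without library 2 of the group labelled knockout, which held both counts, it was -1.13 (limma adjusted p = 0.0152) and passed.

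Gclc and Gclm encode the catalytic and the modifier subunit of glutamate-cysteine ligase, the first and limiting step of glutathione synthesis. Gclc was the member that fell most with LPS in BMDMs. Wild type BMDMs read 12.61, 14.02 and 12.32 FPKM with PBS and 1.76, 1.77 and 1.86 with LPS, a drop by 2.78 on the log2 scale (6.89-fold, SE 0.07, limma adjusted p = 6.07e-10), or by 2.08 with edgeR on counts. Knockout BMDMs read 15.3, 15.4 and 17.0 FPKM with PBS and 3.29, 2.92 and 3.24 with LPS. Both knockout groups stood above their wild type group without overlap. The difference passed with LPS, at 0.78 (1.71-fold, SE 0.07, limma adjusted p = 1.11e-04), and not with PBS, at 0.29 (SE 0.07, adjusted p = 0.0616). The knockout effect was 0.49 larger with LPS (SE 0.10, limma adjusted p = 0.0218), which did not reach the fold of 1.5. In RAW264.7 Gclc read 27.9, 31.5 and 30.1 FPKM in wild type with PBS and 13.6, 13.3 and 13.8 with LPS. The libraries labelled knockout read 29.8, 39.9 and 40.3 with PBS, where library 1 lay among the wild type values, and 18.8, 21.7 and 21.6 with LPS. Gclc was 1.51-fold higher with LPS (log2 0.60, SE 0.12, limma adjusted p = 0.00814), at the edge of the fold threshold, and edgeR gave 0.58 without a call. With PBS the difference was 0.29 (limma adjusted p = 0.155), and 0.43 (adjusted p = 0.00324) without library 1.

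Gclm had smaller differences than Gclc. Wild type BMDMs read 9.28, 8.92 and 9.90 FPKM with PBS against 10.96, 11.39 and 11.6 in the knockout, and 3.99, 4.11 and 3.96 with LPS against 5.15, 4.47 and 4.95. The knockout libraries stood above wild type without overlap in both treatments, by 0.27 (SE 0.06, limma adjusted p = 0.0453) and 0.26 (SE 0.06, limma adjusted p = 0.0167), both under the fold of 1.5. In RAW264.7 the libraries labelled knockout lay slightly below wild type, at 15.2, 13.4 and 13.6 against 16.1, 16.4 and 16.8 FPKM with PBS and 10.3, 9.61 and 9.92 against 11.3, 10.8 and 10.3 with LPS. Neither difference passed (-0.22 and -0.12, limma adjusted p = 0.0861 and 0.311), and the second became 0.11 with TPM scaling.

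Slc7a11 encodes the light chain of the cystine-glutamate exchanger xCT, which imports the cystine needed for glutathione. It rose with LPS in wild type cells of both types. RAW264.7 wild type libraries read 1.66, 1.48 and 1.54 FPKM with PBS and 12.5, 12.8 and 13.1 with LPS, a rise by 2.96 (7.79-fold, SE 0.14, limma adjusted p = 2.93e-07). BMDM wild type libraries read 0.49, 0.42 and 0.48 FPKM with PBS and 4.11, 4.73 and 4.87 with LPS, a rise by 3.05 (8.28-fold, SE 0.08, limma adjusted p = 5.46e-10). The libraries labelled knockout in RAW264.7 started lower and ended higher. They read 0.52, 0.78 and 0.86 FPKM with PBS, all below the lowest wild type library, and 27.1, 26.9 and 27.8 with LPS, all above the highest. The difference was -1.04 with PBS (SE 0.14, limma adjusted p = 0.00151), or -0.85 without library 1, and 1.08 with LPS (SE 0.14, limma adjusted p = 8.09e-04). The call with PBS was lost with a pseudocount of 1 (-0.58) and when the 2 groups were fitted alone (limma adjusted p = 0.0514). The effects differed by 2.12 (SE 0.20, limma adjusted p = 7.20e-04), and by 1.93 without library 1 (limma adjusted p = 1.78e-05). In BMDMs the knockout libraries read 0.58, 0.61 and 0.64 FPKM with PBS and 8.16, 7.80 and 7.59 with LPS. The gain of 0.77 with LPS passed (1.71-fold, SE 0.08, limma adjusted p = 1.69e-04), and the 0.34 with PBS (SE 0.08, limma adjusted p = 0.0436) was under the fold. The treatment-dependent part in BMDMs was 0.44 (SE 0.11, limma adjusted p = 0.0465), also under the fold. Slc7a11 and Gclc thus passed with LPS in both cell types, both higher in the libraries labelled knockout. The Gclc call in RAW264.7 was lost with a pseudocount of 1 (0.57), median-ratio scaling (0.58) and edgeR (0.58).

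**Figure D3:**
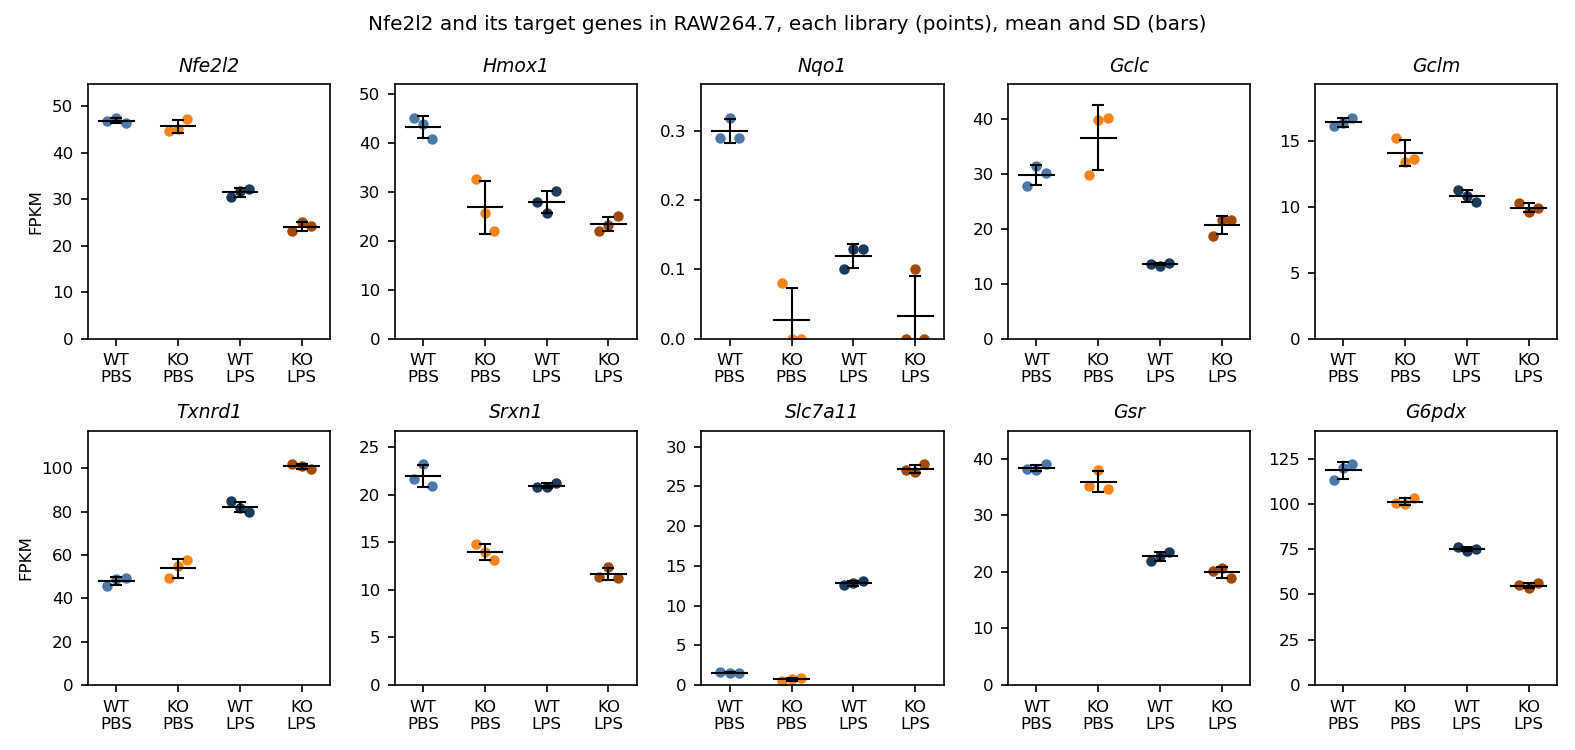
FPKM (vertical axes, from 0) of Nfe2l2 and its 9 targets in RAW264.7 by group (WT wild type, KO libraries labelled knockout), with 3 libraries per group as points and the mean with its SD as lines. The panel of Slc7a11 shows the knockout-labelled libraries with LPS near 27 FPKM and wild type with LPS near 13, and Srxn1 is lower under both treatments.

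Txnrd1 and Srxn1 maintain protein thiols. Txnrd1 encodes the cytosolic thioredoxin reductase and Srxn1 encodes sulfiredoxin, which repairs overoxidized peroxiredoxins. Txnrd1 was the other member that rose with LPS in both wild type cell types. It read 45.8, 48.9 and 49.4 FPKM in RAW264.7 with PBS and 84.8, 81.8 and 79.9 with LPS, a rise by 0.77 (SE 0.08, limma adjusted p = 4.97e-05). In BMDMs it read 30.8, 27.9 and 30.6 FPKM with PBS and 49.4, 52.3 and 53.4 with LPS, a rise by 0.79 (SE 0.05, limma adjusted p = 4.40e-07). Knockout BMDMs read 40.0, 38.9 and 39.5 FPKM with PBS and 65.1, 64.0 and 65.8 with LPS, above wild type without overlap each time. Those differences of 0.41 and 0.33 had limma adjusted p-values of 0.00194 and 0.00212 and were under the fold of 1.5. In RAW264.7 the libraries labelled knockout read 49.2, 54.8 and 57.6 FPKM with PBS, with library 1 inside the wild type range, and 102, 101 and 99.8 with LPS, a difference of 0.30 (SE 0.08, limma adjusted p = 0.0228) under the fold.

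Srxn1 was lower in RAW264.7 libraries labelled knockout under both treatments. Wild type read 21.6, 23.2 and 20.9 FPKM with PBS and 20.8, 20.8 and 21.2 with LPS, and the libraries labelled knockout read 14.83, 14.01 and 13.16 with PBS and 11.4, 12.4 and 11.3 with LPS. The fall was by 0.64 with PBS (1.56-fold, SE 0.08, limma adjusted p = 7.50e-04) and by 0.84 with LPS (1.79-fold, SE 0.08, limma adjusted p = 9.98e-05), and with PBS it was -0.69 without library 1 and -0.46 with TPM scaling, the latter under the fold. In BMDMs it read slightly above wild type in the knockout, at 48.6, 49.8 and 51.3 against 45.6, 42.5 and 45.0 FPKM with PBS and at 20.2, 21.03 and 20.55 against 15.8, 16.9 and 15.5 with LPS. Those groups did not overlap, and the differences of 0.17 (SE 0.05, limma adjusted p = 0.130) and 0.36 (SE 0.05, limma adjusted p = 0.00114) were under the fold of 1.5.

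Gsr encodes glutathione reductase, which returns oxidized glutathione to its reduced form with NADPH, and G6pdx encodes glucose-6-phosphate dehydrogenase, which opens the pentose phosphate pathway and supplies NADPH. Gsr read 23.1, 24.1 and 23.9 FPKM in knockout BMDMs with PBS against 18.6, 17.1 and 19.2 in wild type, and 37.4, 36.1 and 36.8 against 25.1, 23.7 and 26.2 with LPS. Knockout libraries stood above wild type without overlap, by 0.37 (SE 0.06, limma adjusted p = 0.00542) and 0.56 (SE 0.06, limma adjusted p = 1.96e-04), the second 1.47-fold and so just under the threshold. Without library 3 of BMDM wild type with LPS it came to 0.59 and passed. In RAW264.7 Gsr read 38.2, 38.0 and 39.0 FPKM in wild type with PBS and 35.2, 38.0 and 34.6 in the libraries labelled knockout, and 22.0, 22.9 and 23.5 against 20.2, 20.8 and 18.9 with LPS. Neither passed (-0.10 and -0.19, limma adjusted p = 0.412 and 0.0857), and TPM scaling gave 0.09 and 0.04. With LPS, G6pdx read 55.0, 53.4 and 56.1 FPKM in the RAW264.7 group labelled knockout against 76.1, 73.8 and 75.4 in wild type, a difference of -0.45 (SE 0.06, limma adjusted p = 0.00129) under the fold. With PBS the gap was -0.23 (limma adjusted p = 0.0511). In BMDMs it read 43.2, 41.7 and 44.4 FPKM against 39.3, 38.4 and 38.6 with LPS, and the difference of 0.15 (limma adjusted p = 0.0524) vanished with edgeR on counts, at 0.01. G6pdx has an intronless copy elsewhere in the genome, and reads shared with it could not be separated here.

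LPS was also compared with PBS in wild type cells. In BMDMs, 9 of 10 passed, with Slc7a11 and Txnrd1 higher and 7 lower, where 40.4% of genes passed. In RAW264.7, 7 passed, with the same 2 higher and Hmox1, Gclc, Gclm, Gsr and G6pdx lower, where 18.3% of genes passed. In BMDMs the largest falls after Gclc were Hmox1, by 2.31, Srxn1, by 1.46, and Nfe2l2, by 1.39 on the log2 scale. The median expressed gene shifted too, by -0.73 in BMDMs and -0.21 in RAW264.7, while median-ratio scaling left medians of 0.06 and 0.03. On counts, edgeR gave falls in BMDMs for Gclc (-2.08), Hmox1 (-1.54), Srxn1 (-0.70) and Nfe2l2 (-0.62), and rises for Slc7a11 (4.08), Txnrd1 (1.57) and Gsr (1.22), so 7 members passed, 3 of them higher. Under edgeR the G6pdx difference in BMDMs became -0.09, and that of Gclm -0.45, and neither passed. With median-ratio scaling the Nfe2l2 difference in BMDMs was -0.58, just under the fold of 1.5, and did not pass. Over all genes edgeR called 7865 in BMDMs and 4252 in RAW264.7. In RAW264.7 edgeR called 3 members, Slc7a11 and Txnrd1 higher and Gclc lower at -0.91. The fall of Gclc and the rises of Slc7a11 and Txnrd1 therefore passed in both cell types under both tests.

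Of 10 genes that regulate NRF2 or share its binding sites, Bach1, the repressor that competes with NRF2, differed most between BMDM genotypes. Wild type BMDMs read 26.7, 25.8 and 25.8 FPKM with PBS and 50.6, 50.9 and 54.0 with LPS. Knockout BMDMs read 25.9, 24.8 and 24.8 FPKM with PBS and 20.8, 20.6 and 20.8 with LPS. With LPS every knockout library thus read below every wild type library. The difference was -1.32 with LPS (2.49-fold lower, SE 0.04, limma adjusted p = 1.05e-06) and -0.05 with PBS (SE 0.04, adjusted p = 0.636). The knockout effect was more negative with LPS than with PBS (log2 difference -1.26, SE 0.06, limma adjusted p = 1.28e-05), and edgeR on counts gave -1.37. Bach1 was the 1 of 10 regulators that passed with LPS in BMDMs by limma, beside 4.76% of all genes. On counts edgeR called 2, both lower, with Mafk at -0.70, and 1279 genes in all. In RAW264.7 Bach1 was low, at 3.89, 3.75 and 3.82 FPKM in wild type with PBS and 2.06, 1.98 and 1.78 with LPS. The libraries labelled knockout read 3.82, 6.81 and 7.36 FPKM with PBS, where only library 1 lay within the wild type range, and 2.67, 2.53 and 2.30 with LPS. Neither difference passed (0.58 and 0.35, limma adjusted p = 0.0932 and 0.278) with all libraries. Without library 1 Bach1 was higher with PBS, at 0.87 (SE 0.08, limma adjusted p = 7.12e-05), and edgeR called it with all libraries, at 0.61 (adjusted p = 0.0216).

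Sqstm1 encodes p62, an autophagy receptor that can pull KEAP1 off NRF2, and is itself an NRF2 target. It was the 1 of 10 regulators that passed in each RAW264.7 knockout comparison, beside 8.55% of all genes with PBS and 17.3% with LPS. It read 133, 126 and 133 FPKM in wild type with PBS and 89.5, 70.1 and 69.5 in the libraries labelled knockout, a difference of -0.78 (SE 0.10, limma adjusted p = 0.00109), or -0.90 without library 1. With LPS it read 244, 230 and 241 FPKM against 115, 114 and 121, a fall by 1.03 (2.04-fold, SE 0.10, limma adjusted p = 1.39e-04). In BMDMs with LPS Sqstm1 read 468, 486 and 492 FPKM in the knockout against 365, 350 and 353 in wild type, a difference of 0.44 (SE 0.04, limma adjusted p = 1.24e-04) under the fold of 1.5. With PBS, Keap1 itself read 40.0, 35.3 and 31.5 FPKM in the RAW264.7 group labelled knockout against 24.8, 24.2 and 24.5 in wild type. That difference of 0.53 (SE 0.09, limma adjusted p = 0.00656) was under the fold, as was 0.45 without library 1, and BMDM genotypes differed by -0.19 with PBS and -0.15 with LPS (limma adjusted p = 0.115 and 0.0961). With edgeR, 3 of the 10 regulators passed in RAW264.7 with PBS, 1 of them higher, and 4 passed by limma without library 1, with Bach1 higher and Sqstm1, Maff and Rbx1, a subunit of the CUL3 ligase, lower. The share of all genes was not computed for either count, but edgeR called 3116 genes in that comparison, against 2286 by limma with all libraries.

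Several regulators also passed for LPS in wild type cells. Maff rose by 2.48 in RAW264.7 wild type and by 2.77 in BMDMs, and Mafk by 1.47 and 2.21 (limma, all adjusted p at or under 1.28e-05). Sqstm1 rose in both, by 0.87 and 0.99. Bach1 fell by 0.94 in RAW264.7 and rose by 0.99 in BMDMs. Keap1 and Mafg did not pass in RAW264.7. In BMDMs Keap1 rose by 0.91, while Mafg fell by 1.36 and Btrc, which marks NRF2 for degradation apart from KEAP1, fell by 1.01. Counts were 4 of 10 regulators in RAW264.7, 3 higher, and 7 of 10 in BMDMs, 5 higher, beside 18.3% and 40.4% of all genes. On counts with edgeR, which removes the general shift, 8 of 9 called regulators in BMDMs were higher, and Btrc at -0.37 was no longer called.

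**Figure D4:**
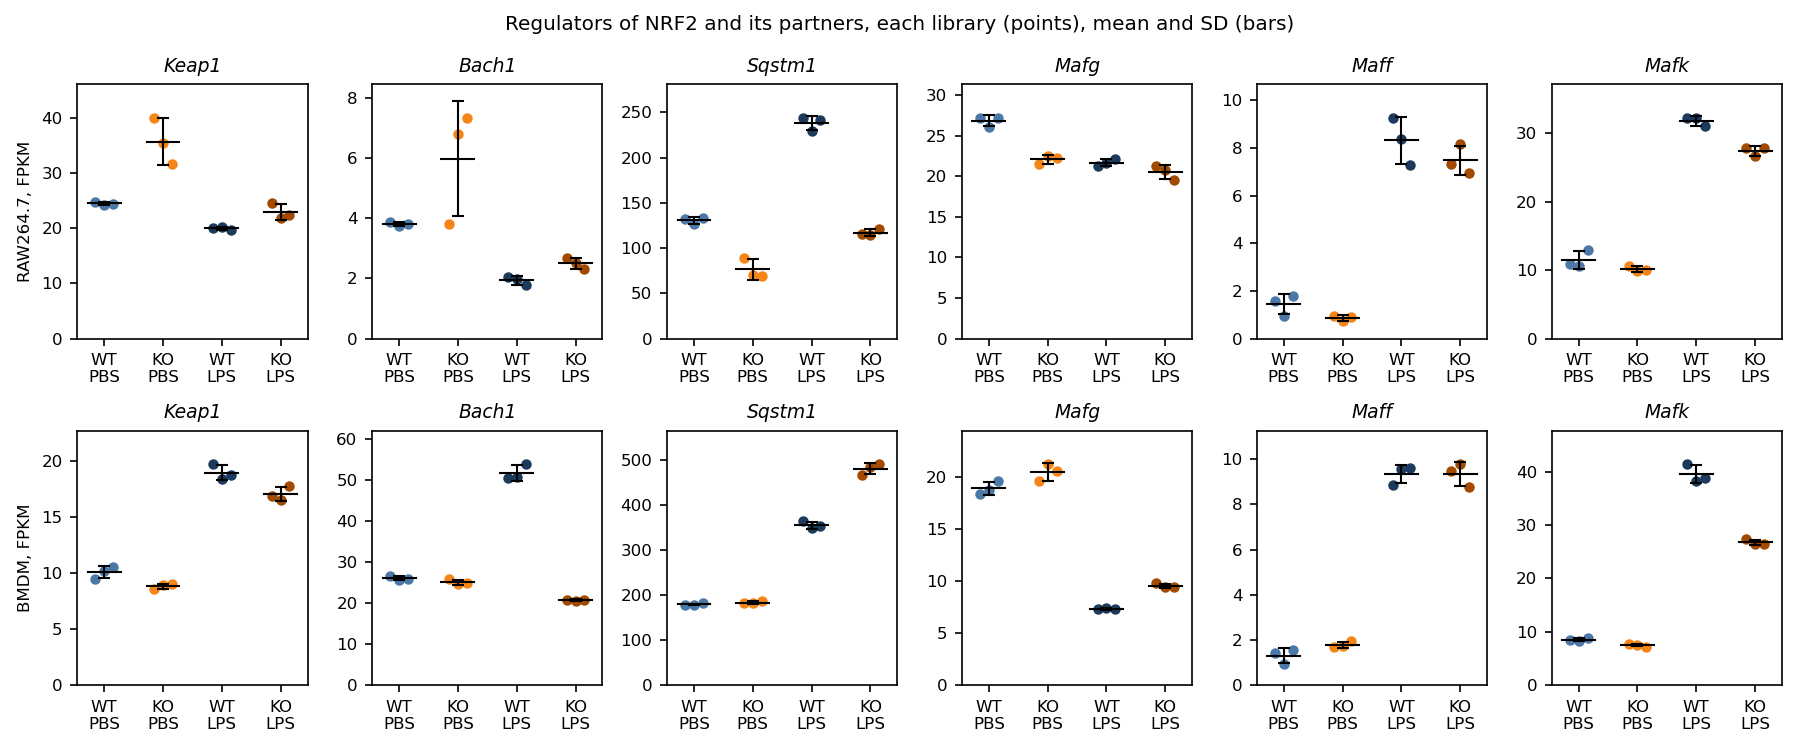
FPKM (vertical axes, from 0) of 6 regulators and partners of NRF2 in RAW264.7 (upper row) and BMDMs (lower row) by group, with 3 libraries per group as points and the mean with its SD as lines. Bach1 in BMDMs reads about 52 FPKM in wild type with LPS and about 21 in the knockout with LPS.

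A list of 20 other NRF2 targets was read in the same comparisons. In RAW264.7, 8 of 20 were lower in the libraries labelled knockout with PBS, none was higher, beside 8.55% of all genes in either direction, and the median difference was -0.57 against 0.02 over all genes. Without library 1, 13 passed, a fit for which the share of all genes was not computed. With LPS, 11 of 20 were lower and none was higher, beside 17.3% of all genes, with a median of -0.78. TPM scaling reduced the count with PBS to 4 and left 10 with LPS, all lower. Over all genes it called 2237 and 4880, against 2286 and 4636 on FPKM. Gstm1, a glutathione S-transferase, had the largest change. It read 11.2, 11.1 and 11.8 FPKM in wild type with PBS against 0.37, 0.25 and 0.24, and 6.10, 7.71 and 7.39 with LPS against 0.29, 0.10 and 0.72. Its log2 differences were -4.90 and -4.16 (SE 0.41 each, limma adjusted p = 6.33e-05 and 1.29e-04). In BMDMs Gstm1 read 65.0 to 72.9 FPKM with PBS and 61.7 to 67.5 with LPS over both genotypes.

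Other targets that were lower in RAW264.7 had smaller differences than Gstm1. Blvrb, a biliverdin reductase, fell by 1.48 with PBS and by 1.37 with LPS, and Gstp1, another glutathione transferase, by 1.39 and 2.05. Taldo1, the transaldolase of the pentose phosphate pathway, fell by 0.85 and 1.08. Osgin1, an oxidative stress growth inhibitor, fell by 0.84 with PBS and stayed under 1 FPKM with LPS. Without library 1 the PBS values were -5.05 for Gstm1, -1.71 for Blvrb, -1.47 for Gstp1, -1.06 for Taldo1 and -0.84 for Osgin1. Thioredoxin (Txn1) and the ferritin chains Fth1 and Ftl1, named here after their values were seen, were lower with LPS, at -0.88, -0.97 and -0.94, and the ferritins have pseudogenes that may share reads. Idh1, the cytosolic NADPH-producing isocitrate dehydrogenase, read 61.1, 61.5 and 58.2 FPKM in wild type with PBS and 38.8, 36.3 and 34.3 in the libraries labelled knockout. With LPS it read 25.3, 25.0 and 27.2 against 9.71, 10.0 and 9.58, a fall by 1.39 (SE 0.07, limma adjusted p = 3.34e-06). Its effect was more negative with LPS than with PBS (log2 difference -0.67, SE 0.11, limma adjusted p = 0.0110), at -0.62 without library 1. In BMDMs 0 of 20 passed by limma with PBS or with LPS, beside 1.81% and 4.76% of all genes, and edgeR called 0 as well. Whatever the fold, 1 and 7 of the 20 had a limma adjusted p under 0.05. The share of all genes by that rule was not computed. The Gst genes belong to families with close copies, so their counts are uncertain.

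**Figure D5:**
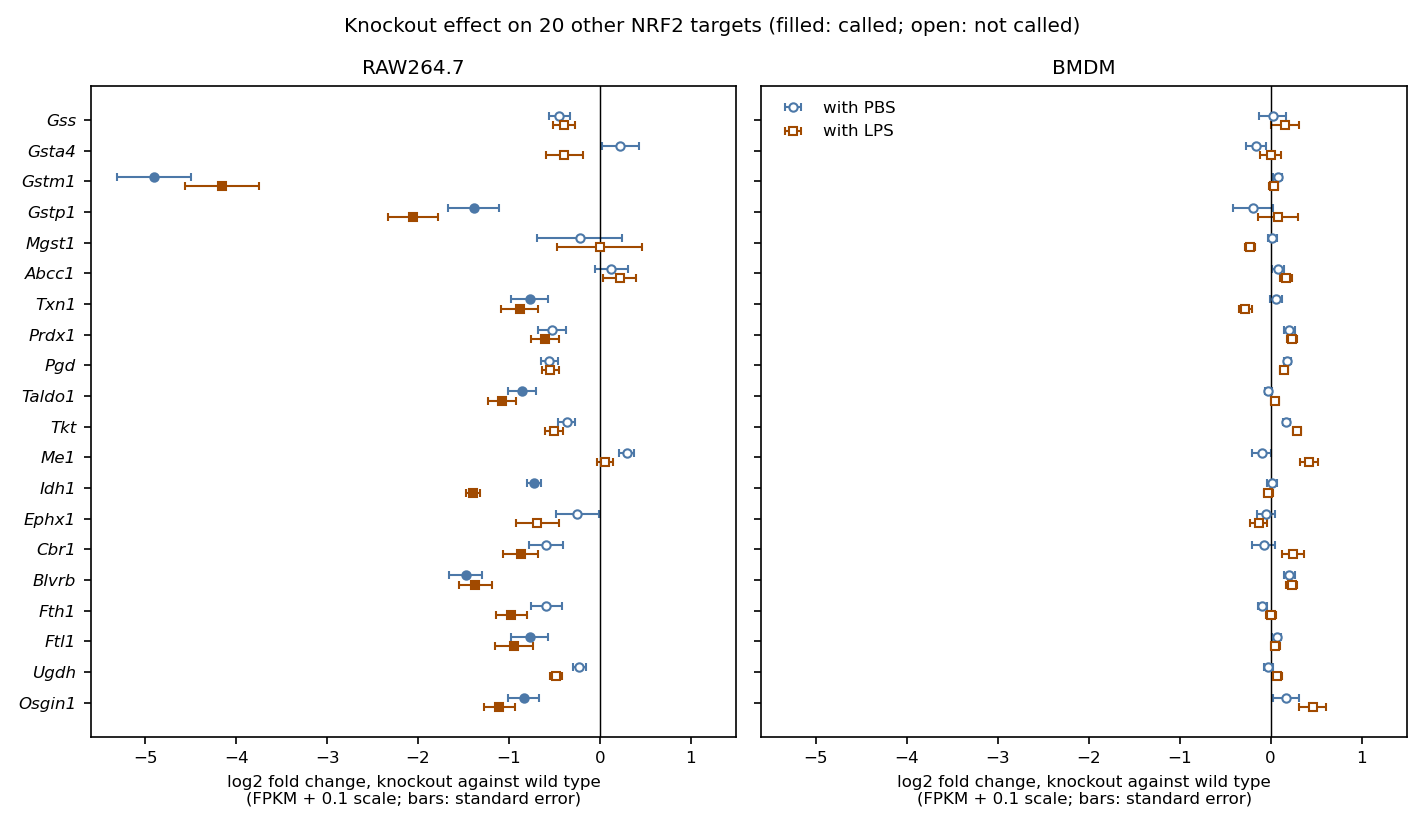
Log2 fold change of knockout against wild type (horizontal axes, FPKM + 0.1 scale) for 20 other NRF2 targets in RAW264.7 and BMDMs, with PBS (circles) and LPS (squares), bars showing the standard error and filled symbols marking genes that passed. Filled symbols appear only in RAW264.7 and all lie below 0.

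In wild type cells LPS lowered 6 of these 20 targets and raised 1 in RAW264.7, and lowered 10 and raised 1 in BMDMs, beside 18.3% and 40.4% of all genes in either direction, most of them lower. Osgin1 fell by 1.86 and 2.78, Idh1 by 1.22 and 2.21, Cbr1, a carbonyl reductase, by 1.27 and 2.04, and Ephx1, an epoxide hydrolase, by 1.49 and 1.38. Abcc1, an exporter of glutathione conjugates, rose by 1.01 in RAW264.7, and Txn1, thioredoxin, rose by 1.11 in BMDMs. With edgeR on counts the BMDM split was 5 higher and 4 lower.

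ATF4, the transcription factor of the amino acid response, is another known activator of Slc7a11, and genes of that response were read beside it. In knockout BMDMs with PBS, 4 of 10 passed, 3 of them higher, beside 1.81% of all genes in either direction. Phgdh and Psat1, enzymes of serine synthesis, were higher by 1.17 (SE 0.09, limma adjusted p = 5.63e-05) and 0.79 (SE 0.05, limma adjusted p = 2.30e-05), and Asns, asparagine synthetase, by 0.76 (SE 0.07, limma adjusted p = 3.19e-04). Ddit3, which encodes the stress factor CHOP, was lower (log2 difference -0.63, SE 0.13, limma adjusted p = 0.0253). With LPS Phgdh passed alone in BMDMs, at 11.04, 10.4 and 11.94 FPKM against 5.01, 4.48 and 4.41, beside 4.76% of all genes. Trib3, an inhibitor of ATF4, had a more negative knockout effect with LPS than with PBS in BMDMs (log2 difference -0.90, SE 0.22, limma adjusted p = 0.0387), at levels under 1 FPKM with LPS. In RAW264.7, 1 of 10 passed with PBS and 2 of 10 with LPS, all lower, beside 8.55% and 17.3% of all genes. Trib3 was lower under both treatments (-1.06 and -1.13, and -1.31 with PBS without library 1) and Psat1 with LPS (-0.61). Atf4 itself read 212, 206 and 205 FPKM with LPS in the libraries labelled knockout against 251, 246 and 263 in wild type, and did not pass. The part of ATF4 in the Slc7a11 values was not tested. In wild type cells 4 of 10 passed with LPS in RAW264.7, 3 higher, and 6 of 10 in BMDMs, 2 higher, beside 18.3% and 40.4% of all genes. With edgeR the RAW264.7 count was 6, all 6 higher, beside 4252 genes called in all. The largest changes were those of Atf3, a repressor induced by Toll-like receptors, up 2.91 in RAW264.7, and of Sesn2, a stress-induced sestrin, down to 1.13 to 1.33 from 7.67 to 8.40 FPKM in BMDMs.

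Across libraries the members did not move as 1 block. Over the 12 BMDM libraries, which share the LPS effect and each library's scaling, Nfe2l2 correlated with Hmox1 at 0.98, Gclc at 0.95, Srxn1 at 0.95, Gclm at 0.93 and G6pdx at 0.93, and with Gsr at -0.37, Txnrd1 at -0.63 and Slc7a11 at -0.78. Over the 12 RAW264.7 libraries it correlated with G6pdx at 0.98 and Gsr at 0.97, with Srxn1 at 0.48, and with Slc7a11 at -0.96 and Txnrd1 at -0.98. These are descriptions over libraries that fall into 4 groups. Among the genes most like Nfe2l2, of 9523 expressed in both cell types, were Gpr137b-ps and Gpr137b, a lysosomal membrane protein, with mean correlations of 0.99 and 0.98 over the 12 libraries of each cell type. Gpr137b-ps is named as a pseudogene of Gpr137b, so reads may be shared between them.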

How the data were processed

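Paired-end sequencing of poly(A) RNA gave 24 libraries, 3 in each of 8 groups taken from the sample titles. The genotype tag contradicted the title in 12 of 24 samples. The authors deposited a table per cell type with read counts and FPKM for each gene, with an aligner and counter not given in the sources used here. Although the labels name the mm10 build, only 1485 of 52073 gene identifiers shared with GENCODE M21 (GRCm38) had the same start, so no table coordinates are given.

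FPKM values were tested with limma 3.58.1 in R 4.3.3 on log2(FPKM + 0.1), in 1 fit of 12 libraries per cell type, over genes above 0 in at least 1 library, after tests on simulated data. Counts were used as deposited in edgeR 4.0.16 and DESeq2 1.42.0 as alternatives, and 2639 rows without a symbol stayed in the fits. Other pseudocounts, filters, scalings, sample sets and a replicate block were also tried. FPKM sums are not held equal between libraries, so a shift common to most genes remains in these values. Library totals had a median of 13833282 counts in RAW264.7 and 21971139 in BMDMs, and depth limits low genes such as Nqo1 most.

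The text names the 10 members, every called regulator with Keap1, Bach1 and Sqstm1 in any case, and of the other target and ATF4 lists up to 5 called genes per comparison with the largest change and a mean of at least 1 FPKM in either group. It also names the label checks and the 3 genes most like Nfe2l2 in pattern, of which 1 is not reported here. Members and lists were chosen with earlier results of these data known.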

Additional observations from a re-analysis of the deposited data

Results flagged for a closer look

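The knockout effect differed between treatments by a limma test of the difference itself (effect with LPS minus effect with PBS, on the log2 scale). In RAW264.7 this held for Slc7a11, at 2.12, and for Idh1, at -0.67. In BMDMs it held for Nfe2l2 at 0.71, for Hmox1 at 0.71, for Bach1 at -1.26 and for Trib3 at -0.90.

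Knockout effects also pointed in opposite directions in the cell types, with every knockout library on one side of wild type in RAW264.7 and on the other side in BMDMs. The difference between cell types was not tested, since their tables were made separately, and most of these single effects were under the fold of 1.5. With PBS the log2 differences in RAW264.7 and BMDMs were -0.71 and 0.15 for Hmox1, -0.22 and 0.27 for Gclm, -0.64 and 0.17 for Srxn1, -1.04 and 0.34 for Slc7a11, -0.10 and 0.37 for Gsr and -0.23 and 0.072 for G6pdx. Keap1 went the other way, at 0.53 and -0.19. With LPS they were -0.38 and 0.80 for Nfe2l2, -0.25 and 0.86 for Hmox1, -0.12 and 0.26 for Gclm, -0.84 and 0.36 for Srxn1, -0.19 and 0.56 for Gsr and -0.45 and 0.15 for G6pdx. Sqstm1 stood at -1.03 and 0.44, Keap1 at 0.20 and -0.15, and Bach1 at 0.35 and -1.32. TPM scaling turned the RAW264.7 values of Gsr to 0.09 with PBS and 0.04 with LPS and that of Gclm with LPS to 0.11, while median-ratio scaling turned the BMDM value of G6pdx with LPS to -0.0038. The RAW264.7 libraries labelled knockout held more Olfml3 mRNA than wild type, which bears on each of these directions.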

How the results depend on the processing

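Counts of members past the test stayed within 1.5 times their main value in 59 of 60 fits that left out a library and in 76 of 86 other settings. In RAW264.7 with PBS the count of 4 became 2 with a pseudocount of 1, 2 with TPM scaling and 2 when the 2 groups were fitted alone. The calls lost were those of Nqo1 and Slc7a11, of Hmox1 and Srxn1, and of Hmox1 and Slc7a11, in that order. In wild type RAW264.7 the 7 members that passed with LPS became 3 with median-ratio scaling, 3 with edgeR and 3 with DESeq2, which remove the shift of the median gene. Using the adjusted p alone, the count became 6 in RAW264.7 with LPS, 4 in BMDMs with PBS, 8 in BMDMs with LPS and 4 for the BMDM difference between treatments. The share of all genes by that rule was not computed. Leaving out RAW264.7 knockout PBS library 1 raised the count for the RAW264.7 difference from 1 to 2, adding Hmox1 at 0.61. Over all libraries left out, counts ran from 3 to 4 in RAW264.7 with PBS, 2 to 3 with LPS, 6 to 7 for LPS in wild type and 1 to 2 for the difference, and in BMDMs from 0 to 0, 4 to 5, 8 to 9 and 2 to 2.

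Single members kept their side of the test and direction in 579 of 600 fits without a library and in 715 of 768 other settings. Directions that turned belonged to Nqo1 or to main differences between -0.19 and 0.15. Among these, Gsr in RAW264.7 and G6pdx in BMDMs, both with LPS, had groups that did not overlap. With TPM scaling Nfe2l2 became 0.15 and Gsr 0.092 in RAW264.7 with PBS, Gclm 0.11 and Gsr 0.042 in RAW264.7 with LPS, and Gclm 0.0055 in the BMDM difference. The LPS effect on Srxn1 in RAW264.7 became 0.17 with median-ratio scaling, 0.16 with edgeR and 0.17 with DESeq2. G6pdx in BMDMs with LPS became -0.0038 with median-ratio scaling and -0.0047 with DESeq2, and its BMDM difference became -0.031 with median-ratio scaling, -0.021 with edgeR and -0.031 with DESeq2. With libraries left out, the BMDM difference ran from -0.049 to 0.051 for Gclm and from -0.019 to 0.74 for Nqo1, and Nqo1 in BMDMs ran from -0.36 to 0.020 with PBS and from -0.17 to 0.59 with LPS. In BMDMs the share of called genes that were higher moved between FPKM and median-ratio scaling from 67.9% to 43.4% for the knockout with LPS, from 65% to 46.8% for the difference and from 19.7% to 47.9% for LPS in wild type. In wild type RAW264.7 it moved from 31.7% to 49.7% with LPS, and TPM scaling moved it from 56% to 68.9% and from 56.1% to 75% for the libraries labelled knockout with PBS and LPS.

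With the replicate block the counts were 4, 3, 7 and 1 in RAW264.7 and 0, 4, 9 and 2 in BMDMs, as without it. Deviations of libraries that share a number correlated at -0.039 to 0.084 in RAW264.7 and -0.058 to 0.071 in BMDMs over 18 pairs each. Those with different numbers ran from -0.10 to 0.078 and from -0.063 to 0.10. Pairing by number was not seen at this level, and a shared culture or animal was not tested.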
